A study of Saccharomyces cerevisiae with 12 samples.

Results

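The proteasome is the protease complex that breaks down proteins tagged with ubiquitin, and this account follows its genes and the gene of its transcription factor Rpn4 in Saccharomyces cerevisiae BY4742. Members were all genes present in both expression tables whose standard name in the R64 annotation starts with RPN, RPT, PRE or PUP followed by a digit, together with SCL1. The rule found 34 genes among the 7126 gene entries shared by both tables. They were 14 genes of the core particle, 10 of the base, 8 of the lid, the assembly chaperone RPN14 and the regulator RPN4. The remaining lid gene SEM1 carries another name, was not a member and was counted with the associated proteins. None of the 34 genes overlaps another gene in the RefSeq annotation of R64, but the 1078 table entries without an R64 match have no position here.

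BY4742 is a haploid laboratory strain of mating type alpha that carries deletions in HIS3, LEU2, LYS2 and URA3, and NaHS, sodium hydrosulfide, supplies hydrogen sulfide once dissolved. Cells grew in SDC medium with NaHS or as controls, and were taken at an early stage, less than 72 h after inoculation, or at a late stage, more than 72 h after it. The 12 libraries made 4 groups of 3, control and NaHS at each stage, all in the same strain. The NaHS dose is not given in the sources used here, and it is not stated whether libraries of the same group came from separate cultures. RNA levels are in TPM (a length-scaled abundance with a fixed total) in the early table and in FPKM (fragment counts divided by gene length and by library size) in the late table. The units differ and the tables were scaled separately, so levels are compared only within a table. Read depth is unknown, and no detection limit can be given for a gene listed at 0.

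The deleted genes LEU2, LYS2 and URA3 had a level of 0 in each of the 12 libraries, as did MFA1 and MFA2, the pheromone genes of the other mating type. HIS3, of which this strain's deletion removes only a part, lay between 301 and 345 TPM early and between 115 and 522 FPKM late. The alpha pheromone gene MF(ALPHA)1 lay between 54.8 and 110.4 TPM early and between 24.8 and 121 FPKM late. STE2, a gene of the other mating type, lay between 4.19 and 15.4 TPM early and was at 0 late. BAR1, another such gene, lay between 1.34 and 1.95 TPM early and was at 0 late. Of the other alpha genes, STE3 lay between 3.3 and 8.72 TPM early and between 7.82 and 21.1 FPKM late. MF(ALPHA)2 lay between 1.37 and 9.75 TPM early and was at 0 late. STE3 was above STE2 in each early control but below it in each early NaHS library, so not all markers followed mating type alpha. The libraries are bulk RNA, in which fewer expressing cells and less RNA per cell cannot be told apart.

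The core particle is a barrel of stacked rings: outer alpha rings that gate the entrance and inner beta rings that carry the protease sites. The base sits on the barrel and unfolds substrates with the ATPases Rpt1 to Rpt6, around the scaffolds Rpn1 and Rpn2 and the ubiquitin receptors Rpn10 and Rpn13. The lid removes the ubiquitin chain, a step carried out by Rpn11. In yeast, Rpn4 binds a short promoter element called the proteasome-associated control element, or PACE, in front of most proteasome genes, and is itself quickly degraded by the proteasome. Rpn4 protein therefore rises when proteasome activity falls short, a step that RNA levels do not show. The proteasome is also known to leave the nucleus for cytoplasmic storage granules when yeast enters quiescence, which RNA levels do not show either.

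PACE, spelled GGTGGCAAA, is the sequence that members share beyond their names. It was searched on both strands in the 300 bases from 250 before to 50 after each coding start. It was found in 27 of 34 members and in 72 of 6021 promoters in all, or 1.20%. It stood in front of 12 of 14 core particle genes, 8 of 10 base genes and 7 of 8 lid genes. The other 45 promoters that hold it belong to genes outside the rule. PRE5, PUP1, RPN8, RPN10, RPN13, RPN14 and RPN4 had no exact match in this window, and RPN10 and RPN13 held the shorter GGTGGC, which was found in 416 promoters, or 6.91%. A match of these letters is a description and was not tested for binding.

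The windows below are from genes that the later results turn on. They were read from the RefSeq R64 genome, run 5′ to 3′ on the strand given, and show PACE in capitals.
SCL1 (chrVII:475337-475365, plus strand): ctatccttacGGTGGCAAAttggtgtgtg
PRE8 (chrXIII:86841-86869, minus strand): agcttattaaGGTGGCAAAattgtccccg
PRE6 (chrXV:255218-255246, minus strand): tttcccttccGGTGGCAAAagaatcttcg
PRE10 (chrXV:1018856-1018884, minus strand): cctctaaatcGGTGGCAAAaataagaaag
PRE3 (chrX:435035-435063, plus strand): aacggaatccGGTGGCAAAaaagggaaaa
RPT5 (chrXV:544855-544883, plus strand): gccaatatgtGGTGGCAAAaatgaattaa
RPN1 (chrVIII:164838-164866, minus strand): tgtgttttacGGTGGCAAAaggcgagcac
RPN7 (chrXVI:742290-742318, minus strand): atcctcaatgGGTGGCAAActtaacttat
The bases that flank the element differ from gene to gene. The nearest base of the element lay 76 to 175 bases before the coding start, with a median of 112, and the element read along the gene's own strand in 19 members and on the other strand in 8.

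**Figure D1:**
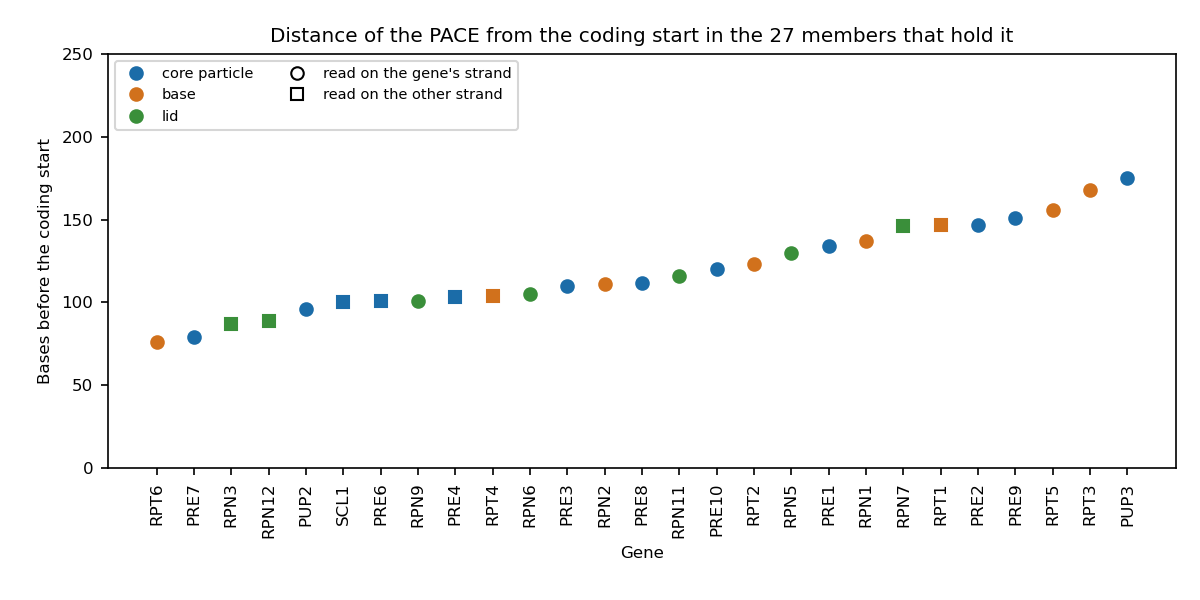
Distance in bases (vertical axis) between the coding start and the nearest base of PACE for the 27 members that hold it, ordered by distance along the horizontal axis. Colours give the particle, circles mark an element read on the gene's strand and squares one read on the other strand. The distances run from 76 to 175 bases, and those of the lid genes from 87 to 146.

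RPN4 (YDL020C, chromosome IV, 415113 to 416708) is read from the minus strand, and its upstream region is known to answer drug, oxidative and heat stress. The stretch from 455 to 335 bases before its coding start is shown because it holds the elements of those regulators, in capitals.
RPN4 upstream (chrIV:417043-417163, minus strand): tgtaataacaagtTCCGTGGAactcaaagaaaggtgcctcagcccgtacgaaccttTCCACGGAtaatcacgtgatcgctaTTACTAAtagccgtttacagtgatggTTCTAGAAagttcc
The drug response element TCCGTGGA, known to bind Pdr1 and Pdr3, occurred once on the gene's strand (442 to 435 bases before the start) and once on the other strand (399 to 392). It was present in 78 of 6021 upstream regions of 600 bases, or 1.30%. The Yap1 element TTACTAA stood 374 to 368 bases before the start and was present in 825 regions, or 13.7%. The heat shock factor element TTCNNGAA stood 348 to 341 bases before the start, with another match 21 to 14 bases before it, and was present in 1507 regions, or 25%. All were searched on both strands.

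In untreated early cultures, levels of the subunit genes spanned a wide range. PRE10, an alpha ring gene, was highest at 526 ± 20.9 TPM (SD, n = 3), and RPN2, a base scaffold, was the lowest subunit gene at 15.1 TPM. RPN10 at 378 TPM, PRE8 at 346 TPM, PUP3 at 271 TPM and PRE3 at 238 TPM followed PRE10. RPN7 at 25.8 TPM, RPN5 at 20.3 TPM and RPN1 at 18.1 TPM stood just above RPN2. In untreated late cultures PRE10 was again first at 624 ± 207 FPKM, followed by PRE8 at 476 FPKM, PUP3 at 325 FPKM, RPN10 at 257 FPKM and PUP1 at 244 FPKM. The late order at the top rested on a wide spread, since PRE8 was at 337, 690.2 and 401 FPKM in its 3 libraries and overlapped the range of PRE10. RPN5 at 14.3 FPKM, RPN4 at 11.7 FPKM and RPN3 at 9.87 FPKM were near the bottom. RPN2 was at 6.003, 0 and 7.63 FPKM in late control libraries 1 to 3, and at 2.47, 6.93 and 5.86 FPKM with NaHS. No fold change is printed for it, though the fit on log2(FPKM + 1) includes it in the late counts and medians below. RPN14 was listed at 0 in all 6 late libraries. The ubiquitin gene UBI4, at 1907 TPM in early controls, was also listed at 0 in all of them, so a late 0 may be a failed estimate and is not read as absence of RNA.

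The early comparison asks what NaHS changed before 72 h. A gene is said to have risen or fallen where the limma p, adjusted over all genes tested, was below 0.05. Among the 34 members, 10 fell and 2 rose. Over all 6124 genes tested, 28.5% fell and 10.1% rose, so the share of members that fell is near that of all genes. The median log2 change was -0.12 over the members and -0.24 over all genes, and 20 of 34 members lay above the all-gene median. Values of NaHS and control libraries did not overlap in 19 members, 13 lower and 6 higher with NaHS, against 41.3% lower, 16.8% higher and 58.2% in either direction among all genes tested. Copper metallothioneins CUP1-1 and CUP1-2 took 5.91%, 6.84% and 3.13% of the summed TPM in the early NaHS libraries and between 0.362% and 0.500% in the controls. When libraries were rescaled by their median gene ratio, 3 members fell and 5 rose. Upper-quartile scaling gave 2 falls and 6 rises, so the split between higher and lower depended on the scaling. PUP2, RPN11 and RPT6 joined RPN13 and SCL1 among the rises under both, and RPN4 did so with upper-quartile but not median-ratio scaling. Of all genes, 18.3% fell and 17.4% rose with median-ratio scaling, and 15.3% fell and 19.7% rose with upper-quartile scaling. These scalings move the median of all genes to -0.01 and 0.08.

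The core particle held most of the early calls: 7 of its 14 genes fell and 1 rose, with a median log2 change of -0.47. As shares, 50% fell and 7.14% rose, against 28.5% and 10.1% of all genes. These counts depended on the scaling. After median-ratio scaling 3 of the 14 fell and 2 rose, against 18.3% and 17.4% of all genes. After upper-quartile scaling 2 fell and 2 rose, against 15.3% and 19.7%. The core particle median was negative under both median-ratio scaling (-0.21) and upper-quartile scaling (-0.11). Within the barrel, 4 of 7 beta ring genes fell and none rose, and 3 of 7 alpha ring genes fell and 1 rose. With median-ratio scaling 1 beta ring and 2 alpha ring genes fell, and with upper-quartile scaling 1 of each ring. Outside the core, 2 of 10 base genes fell and 1 rose with a median of 0.09, and 1 of 8 lid genes fell with a median of -0.06. The base and lid medians were 0.35 and 0.20 with median-ratio scaling, so the sign for the lid turned with the scaling.

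PUP1 encodes beta2, the ring subunit with trypsin-like protease activity (YOR157C, chromosome XV, 630966 to 631751). It was at 173, 171 and 181 TPM in early control libraries and at 56.3, 53.9 and 24.4 TPM with NaHS. All 3 NaHS libraries lay far below the controls, and PUP1 fell from 175 ± 5.63 to 44.9 ± 17.8 TPM (SD, n = 3 each). Its log2 change was -2.03 (SE 0.315, limma adjusted p = 0.00418), the lowest among the members. PUP1 is also a member without an exact PACE match.

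PRE6, the alpha4 gene, was at 45.3, 48.5 and 43.7 TPM in early controls and at 20.8, 21.4 and 27.4 TPM with NaHS. The groups did not overlap, and PRE6 fell by 0.96 on the log2 scale (SE 0.140, limma adjusted p = 0.0033). The calls for PUP1 and PRE6 held under all 15 alternative settings, rescaling and left-out libraries included.

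PRE10, the alpha7 gene and the most abundant member, was at 515, 514 and 550.4 TPM in early controls and at 318, 307 and 334 TPM with NaHS. It fell by 0.72 (SE 0.0924, limma adjusted p = 0.0023), a call lost with upper-quartile scaling alone (adjusted p = 0.0704). PRE8, the alpha2 gene, was at 335.4, 345 and 359 TPM in controls and at 261, 216 and 200.1 TPM with NaHS, a fall of 0.62 (SE 0.125, limma adjusted p = 0.0104). The PRE8 call was lost with median-ratio and upper-quartile scaling.

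PRE3 encodes beta1, the subunit with caspase-like activity, and was at 241, 229 and 245 TPM in early controls and at 133, 122 and 194 TPM with NaHS. It fell by 0.69 (SE 0.184, limma adjusted p = 0.0273). PUP3, the beta3 gene, was at 266, 258 and 291 TPM in controls and at 203, 204 and 226 TPM with NaHS, and fell by 0.36 (SE 0.102, limma adjusted p = 0.0339). PRE4, the beta7 gene, was at 161, 145 and 161 TPM in controls and at 123, 108 and 103 TPM with NaHS, and fell by 0.48 (SE 0.113, limma adjusted p = 0.0181). Neither gene had overlapping groups. PRE3 was called in 8 of 15 alternatives, PUP3 in 7 and PRE4 in 9. The 3 calls were lost after median-ratio and upper-quartile scaling and without any 1 of the controls or NaHS 2, and those of PRE3 and PUP3 also without NaHS 1. The gene of the chymotrypsin-like subunit beta5, PRE2, had a log2 change of -0.46 that did not pass the test (adjusted p = 0.0743), although its groups did not overlap.

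A pair of alpha ring genes had higher values with NaHS. SCL1, the alpha1 gene, was at 169.8, 162 and 176 TPM in early controls and at 208, 215 and 289 TPM with NaHS. It rose from 169 ± 7.03 to 237 ± 44.99 TPM, by 0.47 on the log2 scale (SE 0.149, limma adjusted p = 0.048). This call is marginal: it was made in 7 of 15 alternatives and was lost without any 1 of the controls, NaHS 1 or NaHS 2. PUP2, the alpha5 gene, had the highest change in the core particle at 0.60 (SE 0.197) and just missed the threshold (adjusted p = 0.0526). PUP2 was called higher in 6 of 15 alternatives, median-ratio and upper-quartile scaling included. It was at 62.9, 61.5 and 70.7 TPM in controls and at 85.3, 85.3 and 134 TPM with NaHS, with no overlap. PRE9, PRE5, PRE1 and PRE7 had log2 changes of -0.20, 0.04, 0.20 and -0.47 and did not pass the test.

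In the base, RPN13, the ubiquitin receptor docked on Rpn2, was at 134, 142 and 121 TPM in early controls and at 169, 178 and 252 TPM with NaHS. It rose from 132 ± 10.6 to 199.7 ± 45.9 TPM, by 0.57 (SE 0.176, limma adjusted p = 0.0445), but the call was lost without any 1 of the controls or NaHS 2 (adjusted p up to 0.138). The scaffold gene RPN1 was at 18.3, 17.2 and 18.7 TPM in controls and at 11.1, 10.7 and 12.6 TPM with NaHS. RPN1 fell by 0.61 (SE 0.117, limma adjusted p = 0.00866). The ATPase gene RPT5 was at 164, 164 and 168 TPM in controls and at 111, 119.7 and 116 TPM with NaHS, and fell by 0.52 (SE 0.0906, limma adjusted p = 0.00658). The calls for RPN1 and RPT5 were lost with median-ratio and upper-quartile scaling. The other ATPase genes did not pass the test: RPT1, RPT2, RPT3, RPT4 and RPT6 had log2 changes of -0.02, 0.41, 0.21, 0.34 and 0.50. RPT6 was at 149, 143 and 155 TPM in controls and at 178, 179 and 292 TPM with NaHS, so that the NaHS libraries were all higher but spread widely.

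In the lid, RPN7, a structural subunit, was at 25.9, 24.0 and 27.5 TPM in early controls and at 18.9, 17.1 and 20.6 TPM with NaHS. RPN7 fell by 0.43 (SE 0.122, limma adjusted p = 0.0328), a call made in 7 of 15 alternatives and lost after both rescalings and without any 1 of the controls, NaHS 1 or NaHS 2. The highest lid change was that of RPN5, at 19.2, 19.6 and 22.1 TPM in controls and at 23.3, 21.3 and 43.2 TPM with NaHS. Its groups overlapped and its log2 change of 0.44 did not pass the test (SE 0.268, adjusted p = 0.232). The deubiquitinase gene RPN11 was at 76.7, 84.2 and 79.7 TPM in controls and at 93.8, 85.8 and 88.0 TPM with NaHS, a log2 change of 0.15 that did not pass the test (adjusted p = 0.259).

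The base chaperone RPN14 was at 26.5, 27.9 and 23.5 TPM in early controls and at 25.4, 24.8 and 19.4 TPM with NaHS. Its groups overlapped, and its log2 change was -0.16 (SE 0.147, adjusted p = 0.411). RPN4 was at 54.3, 51.0 and 57.6 TPM in early controls and at 63.95, 68.1 and 45.7 TPM with NaHS. NaHS 1 and 2 were above every control and NaHS 3 below every control, and the log2 change of 0.10 did not pass the test (SE 0.171, adjusted p = 0.654). RPN4 was called higher in 2 of 15 alternatives, upper-quartile scaling and without NaHS 3. Over the 15 its log2 change ran from -0.0046 to 0.457.

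**Figure D2:**
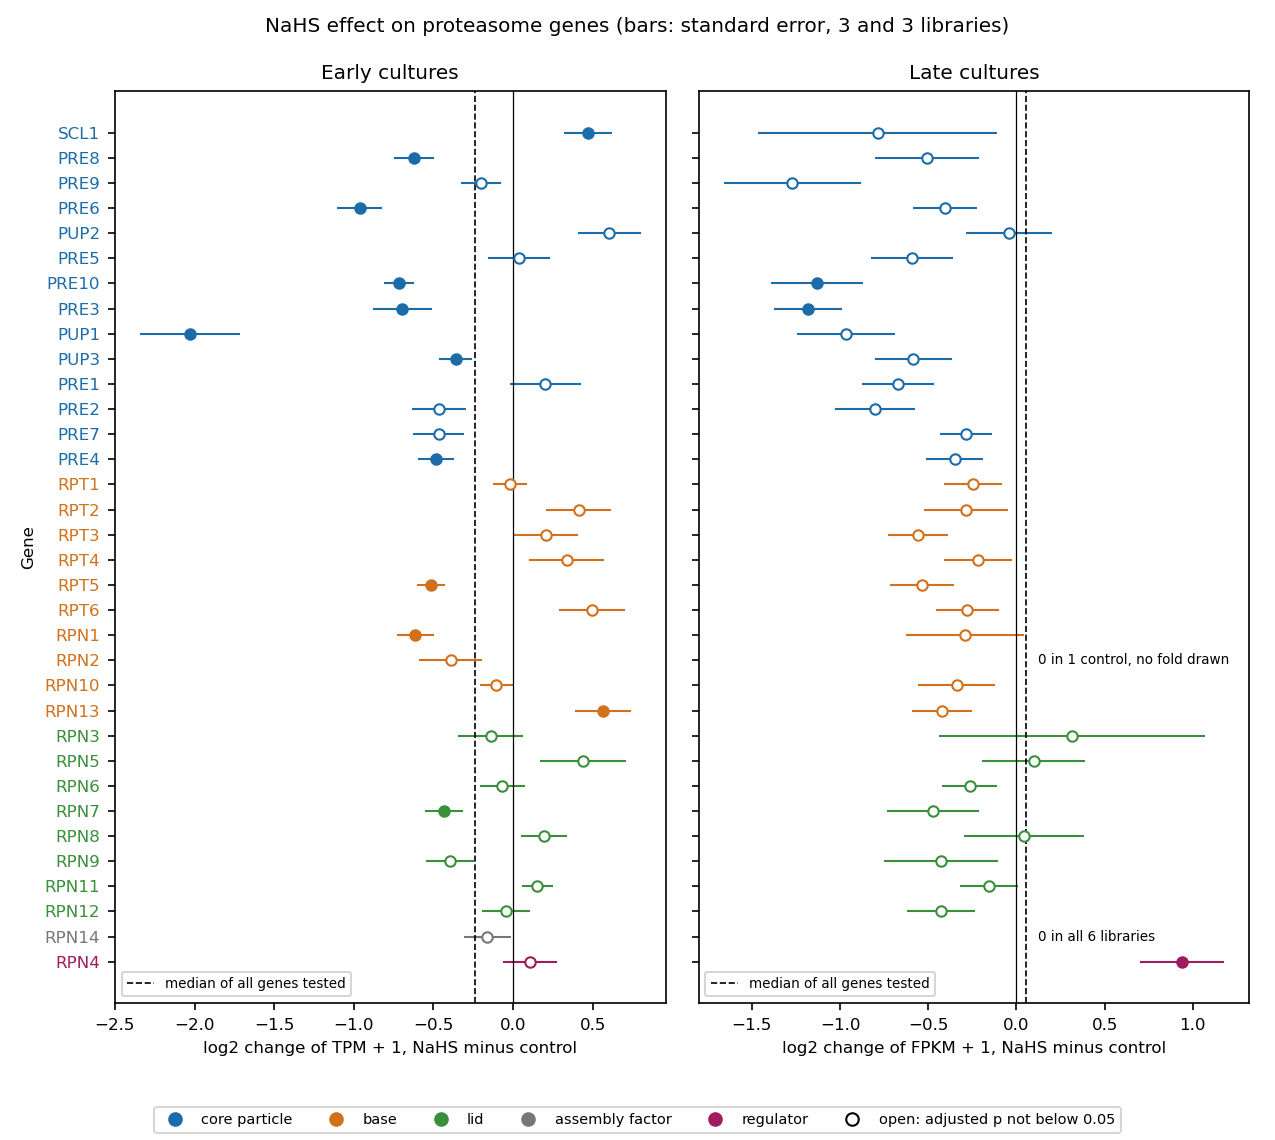
Log2 change with NaHS (horizontal axis; left, TPM + 1 in early cultures, right, FPKM + 1 in late cultures) for each member (vertical axis), with the standard error as a bar and the median of all genes tested as a dashed line. Filled points passed the test; early PUP1 stands lowest at -2.03, and late RPN4 at 0.94 stands opposite the 14 core particle genes, all below 0.

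Early NaHS 3 stood apart from NaHS 1 and 2 among these genes. It was the highest of the 3 NaHS libraries in 27 of 34 members, or 79.4%, against 41.6% of all genes tested. Over all genes it was the lowest in 45.5%. Such ranks were not particular to it. Early control 3 was the highest control in 24 of 34 members, or 70.6%, against 33.6% of all genes. Early control 2 was the lowest in 21, or 61.8%, against 33.6%. In PRE8, PUP1, PRE4, RPN14 and RPN4 NaHS 3 was the lowest NaHS library instead. Ribosomal RNA entries made up 3.20% of its TPM, against 1.70% and 1.44% in the other NaHS libraries and 0.757% to 1.18% in controls, and its metallothionein share was the lowest of the group. The part of these differences in the result was not tested. Without early NaHS 3, 18 members fell and 5 rose, against 10 and 2 with it. Over all genes, 37.9% fell and 15.3% rose in that setting, so calls also became more frequent outside the members. The 12 calls made with it were all among these 23. RPN4 and the base genes RPN13 and RPT6 were then among the 5 that rose, with SCL1 and PUP2. The lid and base medians without it were -0.19 and -0.05, and the core particle median was -0.49.

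**Figure D3:**
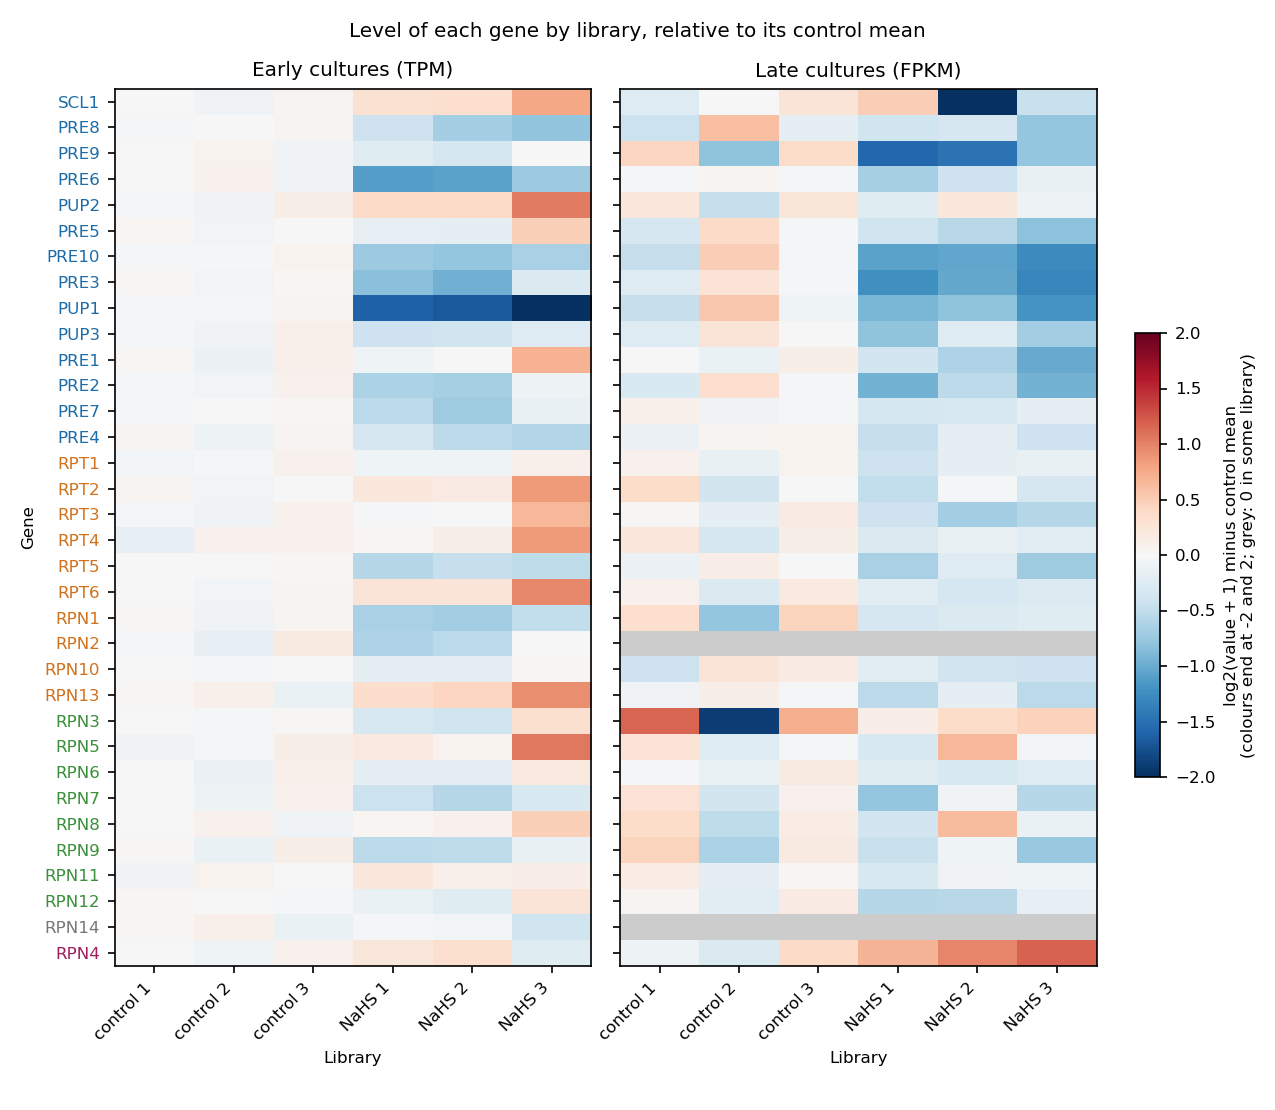
Colour gives the log2(value + 1) of each member (rows) in each library (columns) minus the mean of its stage's controls, for early TPM on the left and late FPKM on the right; colours end at -2 and 2, and genes with a 0 in some late library are grey. Early controls are near white throughout, early NaHS 3 is redder than NaHS 1 and 2 in most rows, and late control 2 differs from the other controls in both directions.

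The late comparison asks what NaHS changed after 72 h. Among the 33 members tested, 2 fell and 1 rose. Over all 5344 genes tested, 9.99% fell and 5.28% rose, so the count of calls among members is no larger than the background. The direction was one-sided all the same: 28 of 33 members had a negative log2 change, their median was -0.41, and the median of all genes was 0.05. Of the 33, 29 lay below the all-gene median. The gene RPN2, with its 0, was 1 of the 5 positive members, and without it the median over 32 members was also -0.41. Groups did not overlap in 14 members, 13 lower and 1 higher with NaHS, against 19.8% lower and 18.8% higher among all genes. Of the 13 that were lower without overlap, 11 did not pass the test.

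All 14 core particle genes had a negative late log2 change, with a median of -0.63, and 2 of them fell. With upper-quartile scaling or equal totals, 13 of the 14 were negative. The base median was -0.29, with or without RPN2, and the lid median -0.21, with no gene of either called. Of the 8 lid genes 5 were negative.

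PRE3 was at 166, 242 and 196 FPKM in late controls and at 84.4, 97.8 and 80.0 FPKM with NaHS. All NaHS libraries were below all controls, and PRE3 fell from 201 ± 38.2 to 87.4 ± 9.24 FPKM (SD, n = 3 each). Its log2 change was -1.18 (SE 0.194, limma adjusted p = 0.0101), and the call was made in all 15 alternatives. PRE10 was at 438, 847 and 588 FPKM in late controls and at 286, 292 and 248 FPKM with NaHS, with no overlap. It fell by 1.13 (SE 0.259, limma adjusted p = 0.0309), but was not called without control 3 or without any 1 of the NaHS libraries (adjusted p up to 0.106). PRE3 and PRE10 had fallen in the early comparison too, which uses other libraries.

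The lowest late change was that of PRE9, the alpha3 gene and the one core subunit that yeast can live without. It was at 50.1, 20.7 and 47.5 FPKM in controls and at 11.8, 12.6 and 21.0 FPKM with NaHS, so that NaHS 3 just overlapped control 2. Its log2 change of -1.27 did not pass the test (SE 0.389, adjusted p = 0.0724). PUP1 was at 169.9, 339.5 and 221 FPKM in late controls and at 124, 134 and 102 FPKM with NaHS. The groups did not overlap, but the log2 change of -0.97 did not pass the test (SE 0.277, adjusted p = 0.0609). PRE2 was at 184, 289 and 224 FPKM in controls and at 118, 159 and 118 FPKM with NaHS, with no overlap and a log2 change of -0.80 (SE 0.227, adjusted p = 0.0596). PRE1, PRE5, PUP3, PRE8, PRE6, PRE4 and PRE7 had log2 changes from -0.67 to -0.29, none called.

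The late core gene nearest to no change was PUP2, at 69.1, 42.8 and 69.8 FPKM in controls and at 49.99, 68.5 and 55.1 FPKM with NaHS. Its groups overlapped fully, and the log2 change was -0.04 (SE 0.245, adjusted p = 0.922). SCL1 varied most with NaHS, at 88.8, 11.1 and 46.1 FPKM, against 53.0, 62.7 and 75.9 FPKM in controls, and its log2 change of -0.79 did not pass the test (adjusted p = 0.452).

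In the base, RPT3 had the lowest late change. It was at 52.7, 44.8 and 58.3 FPKM in controls and at 38.3, 31.8 and 34.5 FPKM with NaHS, with no overlap. Its log2 change of -0.56 did not pass the test (SE 0.171, adjusted p = 0.0726). Among the 9 base genes without a 0, RPT4 had the highest, at 54.6, 36.5 and 50.3 FPKM in controls and at 37.8, 41.7 and 40.2 FPKM with NaHS, a log2 change of -0.22 (SE 0.194, adjusted p = 0.468). RPN13 was at 141, 162 and 144 FPKM in controls and at 102, 130.2 and 102 FPKM with NaHS. All its NaHS values were below all controls, opposite to the early table, but the log2 change of -0.42 did not pass the test (SE 0.170, adjusted p = 0.142).

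In the lid, RPN7 had the lowest late change, at 37.0, 23.2 and 32.1 FPKM in controls and at 17.2, 28.7 and 20.1 FPKM with NaHS. The groups overlapped, and its log2 change was -0.47 (SE 0.260, adjusted p = 0.253). RPN3 had the highest, 0.32 (SE 0.754, adjusted p = 0.803), and rested on 1 library: it was at 16.5, 1.12 and 11.99 FPKM in controls and at 7.55, 9.14 and 9.75 FPKM with NaHS. Without control 2 the log2 change of RPN3 was -0.63.

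RPN4 went against most subunit genes in late cultures. It was at 10.7, 9.18 and 15.2 FPKM in late controls and at 18.9, 23.4 and 27.1 FPKM with NaHS. All 3 NaHS libraries were above all 3 controls, and RPN4 rose from 11.7 ± 3.15 to 23.1 ± 4.15 FPKM (SD, n = 3 each). Its log2 change was 0.94 (SE 0.239, limma adjusted p = 0.0428). The call was made in 7 of 15 alternatives, and it was lost without control 1, without control 2 and without any 1 of the NaHS libraries (adjusted p up to 0.146). The log2 change stayed between 0.76 and 1.13 in all 15. The 32 subunit genes together summed to 3533, 4756 and 4074 FPKM in late controls and to 2671, 2924 and 2504 FPKM with NaHS, with no overlap. As a share of all FPKM in a library they made up 0.234%, 0.222% and 0.248% in controls and 0.174%, 0.175% and 0.143% with NaHS.

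**Figure D4:**
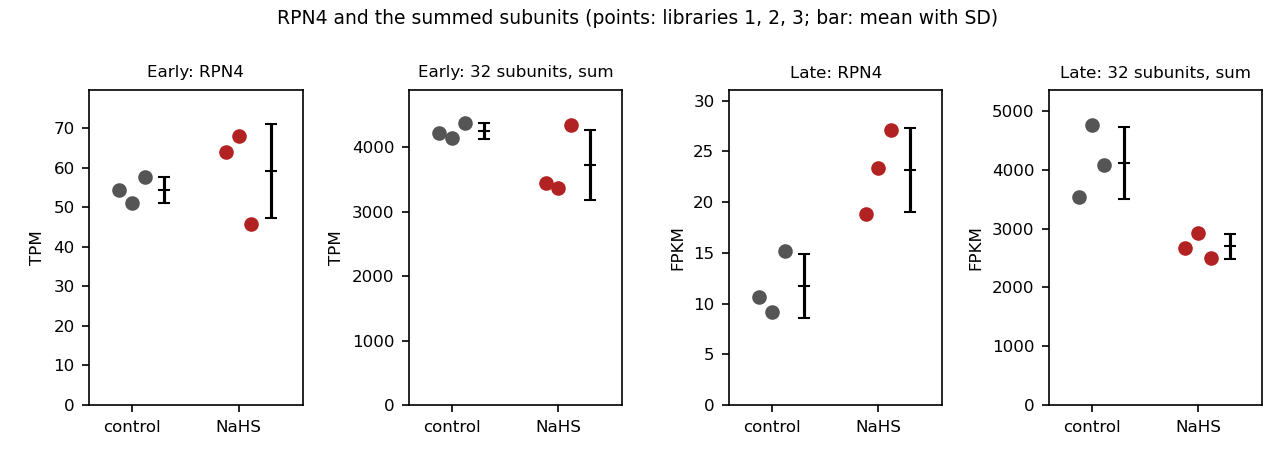
Level of RPN4 and summed level of the 32 subunit genes in each library, in TPM (early) and FPKM (late); points are libraries 1 to 3 from left to right, grey for control and red for NaHS, and bars give the mean with SD. In late cultures RPN4 lay between 18.9 and 27.1 FPKM with NaHS, above all controls, while the subunit sum lay below all controls; in early cultures the groups overlap in both panels.

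The early sum of the 32 subunit genes was 4223, 4152 and 4386 TPM in controls and 3448, 3365 and 4345 TPM with NaHS. NaHS 1 and 2 lay below all controls, and NaHS 3 lay among them.

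Late control 2 stood apart among the late controls. It was the lowest control in 20 of 33 members, or 60.6%, against 38.6% of all genes tested, and the highest in 11. The spread over subunit genes within a library, as the SD of log2(value + 1), was 2.20 in it and between 1.34 and 1.56 in the other late libraries. Of those 11, 8 were core particle genes, a particle whose median level was 170.2 FPKM against 128.6 and 140.7 FPKM in controls 1 and 3. Ribosomal RNA took 0.959% of its FPKM, against 0.267% and 3.60% in controls 1 and 3 and 0.259% to 0.328% with NaHS, and the part of this in the result was not tested. Without late control 2, PRE10, PRE3, PRE9 and RPN1 fell and no member rose, against 8.33% and 5.10% of all genes. The particle medians then moved closer to each other, at -0.54 for the core particle, -0.43 for the base and -0.44 for the lid.

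Within the 32 subunit genes, the late log2 change was ordered with gene length (Spearman rho 0.567 with coding length) and inversely with level (rho -0.502 with the control mean). Without RPN2, which has a 0 in late control 2, they were 0.528 and -0.452. The late value for length was 0.094 over 4901 genes with a known length, and that for level was -0.183 over all 5344 genes tested. In early cultures the subunit values were 0.0495 and -0.225. These are descriptions across genes, which share their libraries and are not independent, and the effects of length and level were not separated. The log2 change and the control mean use the same control libraries, so error in the controls alone pushes the value for level below 0. Late control 2 enters every late value, and none was computed without it. The early and late changes of the same subunit gene had a rho of 0.394 over the 32 genes, 0.436 over the 31 without RPN2, and 0.275 over 5165 genes.

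Set against each other inside a library, the particles shifted with NaHS in early cultures. The mean log2(TPM + 1) of core particle genes minus that of base genes was 1.01, 0.994 and 1.002 in early controls and 0.67, 0.58 and 0.42 with NaHS. Core particle minus lid was 1.55, 1.55 and 1.56 in controls and 1.24, 1.24 and 1.07 with NaHS. Base minus lid was 0.54, 0.56 and 0.56 in controls and 0.57, 0.66 and 0.65 with NaHS. All 3 NaHS libraries had a smaller gap than all controls between the core particle and the base and between the core particle and the lid, while the gap between base and lid was slightly larger in all NaHS libraries than in all controls. Inside the barrel, beta ring minus alpha ring was 0.16, 0.10 and 0.19 in controls and -0.21, -0.22 and -0.36 with NaHS, a change of sign in every NaHS library. Each ring mean covers 7 genes, and the beta ring includes PUP1, with its log2 change of -2.03. PUP1 was lowest in NaHS 3, at 24.4 TPM, and also enters both core particle gaps. The median log2 change was -0.47 for the beta ring and -0.20 for the alpha ring. No gap was computed without PUP1. Such gaps hardly depend on how a library is scaled, and they carry no test here because the genes in them were chosen with results known.

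In late cultures the same gaps overlapped or depended on control 2. Core particle minus base was 0.90, 1.65 and 1.005 in late controls and 0.92, 0.64 and 0.73 with NaHS. Core particle minus lid was 1.78, 2.91 and 2.12 in controls and 1.99, 1.503 and 1.74 with NaHS. Beta ring minus alpha ring was 0.28, 0.49 and 0.27 in controls and 0.17, 0.68 and 0.15 with NaHS. The groups overlapped in each, with control 2 highest in both gaps to the core particle.

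**Figure D5:**
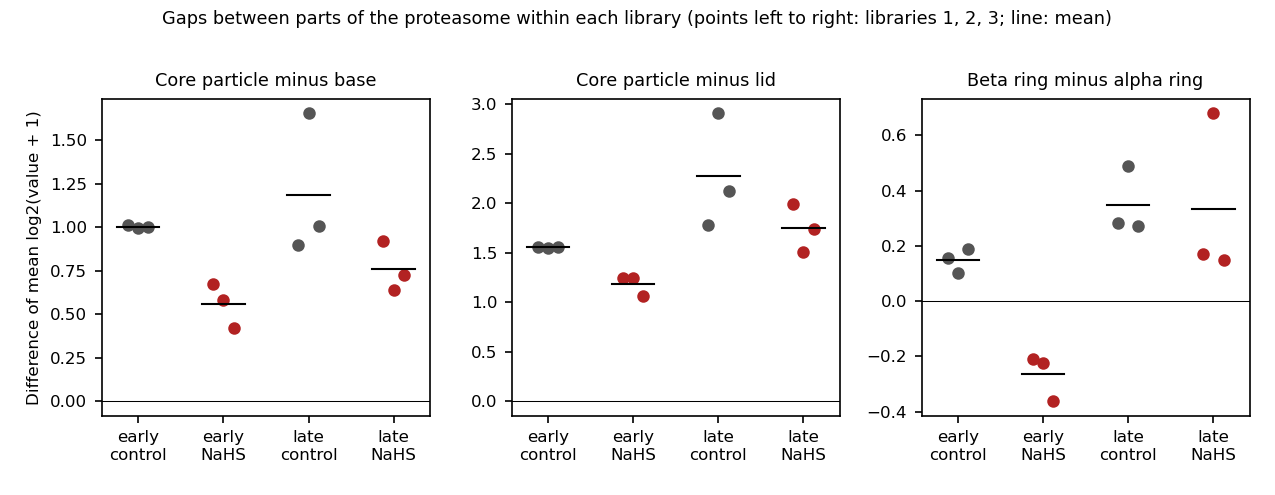
Difference of mean log2(value + 1) between parts of the proteasome (vertical axes) in each library, by group along the horizontal axis; points are libraries 1 to 3 from left to right and the line is the group mean. Early controls cluster tightly, the early NaHS libraries lie below them in all 3 panels, and late groups overlap.

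The difference between the late and the early NaHS effect was fitted over all 12 libraries. Of 33 members tested, RPN13 was lower in the late effect and none was higher. Among all 5165 genes tested, 7.55% were lower and 15.2% higher. The median difference was -0.24 over the members and 0.25 over all genes, and 27 of 33 members lay below the all-gene median. Without RPN2 the median over 32 members was -0.27. For RPN13 the late effect minus the early effect was -0.99 (SE 0.245, limma adjusted p = 0.016), and the call was made in all 21 alternatives, with adjusted p up to 0.0469. The early NaHS values of RPN13 were all above their controls and the late ones all below theirs. All 6 ATPase genes had a negative difference, with a median of -0.63, and none was called. RPT6 (-0.78, adjusted p = 0.0679), RPT3 (-0.77, adjusted p = 0.0638) and the beta4 gene PRE1 (-0.88, adjusted p = 0.0658) came closest. Without late control 2, 5 of 33 members were lower in the late effect, against 7.74% of all genes. RPN4 had a positive difference of 0.84 (SE 0.305) that did not pass the test (adjusted p = 0.0714), so its late rise was not shown to differ from its early change.

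Members were also compared by their promoter element. Of the 27 with an exact match, 9 fell and 1 rose early, with a median log2 change of -0.20. Of the 7 without one, 1 fell and 1 rose, with a median of 0.04. The 9 that fell are 33.3% of the 27, against 28.5% of all genes. The 42 tested genes outside the rule that hold PACE had a median of -0.37 early, with 18 that fell and 4 that rose, or 42.9% and 9.52% against 28.5% and 10.1% of all genes. In late cultures the 27 members with PACE had a median of -0.41, 24 of them negative and 2 called. The 6 members without PACE tested late had a similar median of -0.38, with 4 negative and 1, RPN4, called higher. Of the 38 other genes with PACE tested late, 5 fell and none rose, with a median of -0.28; 13.2% fell, against 9.99% of all genes. CDC48 was among these 5.

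Genes of the same pathway were described from lists of 41 further genes, of which 10 rose and 9 fell early, and 1 rose and 2 fell of 35 tested late. As shares, 24.4% rose and 22% fell early, against 10.1% and 28.5% of all genes, and 2.86% rose and 5.71% fell late, against 5.28% and 9.99%. Among 8 assembly chaperone genes, 2 fell early, or 25% against 28.5% of all genes, and none rose. NAS6, a base chaperone, fell by 0.46 (SE 0.134, limma adjusted p = 0.0376) and ADD66, a core particle chaperone, by 0.37 (SE 0.114, limma adjusted p = 0.0422). Neither call held with median-ratio or upper-quartile scaling, or without any 1 of the early controls or NaHS 1, and that of ADD66 was also lost without NaHS 2. The highest early changes were those of HSM3 at 0.41 and UMP1 at 0.23, which did not pass the test. In late cultures none was called. The median of the 8 was -0.21 with 6 negative, or 4 negative with upper-quartile scaling or equal totals. The lowest were ADD66 at -0.65 (limma adjusted p = 0.0769) and IRC25 at -0.44 (limma adjusted p = 0.165), both with no overlap. POC4, a core particle chaperone, was at 5.98, 33.5 and 12.4 FPKM in controls and at 40.8, 68.9 and 44.9 FPKM with NaHS, with no overlap and a log2 change of 1.79 (SE 0.563, adjusted p = 0.0769).

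Among 11 genes of associated proteins, 3 fell and 3 rose early, or 27.3% each against 28.5% and 10.1% of all genes. BLM10, the activator that caps the core particle in place of the base and lid, fell from 10.4 ± 0.632 to 4.73 ± 0.802 TPM. Its log2 change was -0.999 (SE 0.146, limma adjusted p = 0.00337), and the call held in all 14 alternatives that tested it. ECM29, which tethers the core to the base, was at 3.41, 2.38 and 2.45 TPM in controls and at 1.30, 1.54 and 0.58 TPM with NaHS, and fell by 0.83 (SE 0.227, limma adjusted p = 0.0306). That call was lost without any 1 of the controls or NaHS 1 and after both rescalings. CIC1, counted here with the associated proteins, was at 1.49, 1.05 and 1.45 TPM in controls and at 3.44, 2.36 and 2.13 TPM with NaHS. CIC1 rose by 0.63 (SE 0.186, limma adjusted p = 0.0376), a call lost without any 1 of the controls, NaHS 1 or NaHS 2, and it was listed at 0 in all late libraries. SPG5, a proteasome regulator of stationary phase, had an early log2 change of 0.83 that did not pass the test (adjusted p = 0.0866). Of 10 tested late none was called, and TMC1 and the deubiquitinase gene UBP6 were lowest, both at -0.74 (adjusted p = 0.0574 and 0.0907).

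Upstream of the proteasome, among 15 genes for ubiquitin, its enzymes, shuttle factors and CDC48, 5 rose and 3 fell early, or 33.3% and 20% against 10.1% and 28.5% of all genes. UBC4, a ubiquitin-conjugating enzyme for short-lived and damaged proteins, was at 523, 441 and 466 TPM in controls and at 954, 924 and 1503 TPM with NaHS. UBC4 rose by 1.21 (SE 0.206, limma adjusted p = 0.00596). UBA1, the single ubiquitin-activating enzyme, was at 28.8, 27.6 and 28.2 TPM in controls and at 9.49, 10.8 and 13.1 TPM with NaHS, and fell by 1.28 (SE 0.140, limma adjusted p = 0.00134). Both calls held in all 15 alternatives. The stress polyubiquitin gene UBI4 rose from 1907 ± 43.9 to 2622 ± 366 TPM, by 0.45 (SE 0.123, limma adjusted p = 0.0302), a call lost without any 1 of the controls, and it was listed at 0 in all late libraries. DOA1, which helps keep ubiquitin levels, fell by 0.89 (SE 0.192, limma adjusted p = 0.0136), a call lost without control 1, without control 3 and after upper-quartile scaling.

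In late cultures CDC48, the ATPase that extracts ubiquitin-tagged proteins, had the lowest adjusted p of the members and further genes tested. It was at 222, 202 and 222 FPKM in controls and at 61.0, 60.1 and 65.4 FPKM with NaHS, and fell by 1.78 (SE 0.144, limma adjusted p = 0.000635). The call held in all 15 alternatives. Its late effect minus its early effect was -1.42 (limma adjusted p = 0.000919). The shuttle gene RAD23 was at 175.8, 174 and 186 FPKM in controls and at 259.8, 255 and 283 FPKM with NaHS, and rose by 0.57 (SE 0.143, limma adjusted p = 0.0409). UBC5, the close relative of UBC4, fell by 0.93 (SE 0.240, limma adjusted p = 0.046). UBC4 was at 840, 892 and 916 FPKM in late controls and at 1473, 1106 and 1506 FPKM with NaHS. Its log2 change of 0.61 did not pass the test (SE 0.179, adjusted p = 0.0645). Reads shared by such near copies may have been split between them, which was not tested. Of the 13 genes of this list tested late, 1 rose and 2 fell, or 7.69% and 15.4% against 5.28% and 9.99% of all genes. The RAD23 call was lost without any 1 late library, and the UBC5 call without control 2, control 3 or any 1 of the NaHS libraries.

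The genes listed as RPN4 regulators include both transcription factors with elements upstream of RPN4 and genes for Rpn4 turnover. Of the 7, 2 rose and 1 fell early, or 28.6% and 14.3% against 10.1% and 28.5% of all genes. Early, PDR1 rose from 3.22 to 6.60 TPM, by 0.82 (SE 0.223, limma adjusted p = 0.0297), and YAP1 from 30.8 to 40.3 TPM, by 0.38 (SE 0.111, limma adjusted p = 0.0377). UBR2, the ubiquitin ligase gene for Rpn4 turnover, fell from 7.23 to 4.99 TPM, by 0.46 (SE 0.142, limma adjusted p = 0.0437). All 3 calls were lost without any 1 of the controls or NaHS 1, those of YAP1 and UBR2 also without NaHS 2, and that of UBR2 with median-ratio and upper-quartile scaling. HSF1 (0.05), MUB1 (0.10), UBR1 (-0.43) and PDR3 (-0.39) did not pass the early test. In late cultures, where RPN4 rose, none of the 4 tested was called: HSF1 had a log2 change of 1.06 (adjusted p = 0.149), PDR3 of 0.17, YAP1 of 0.08 and UBR2 of 0.00. PDR1, MUB1 and UBR1 were listed at 0 in all 6 late libraries, where a 0 may be a failed estimate.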

How the data were processed

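Per the labels' protocols, TRIzol RNA was cleared of DNA with DNase I, and size-selected TruSeq libraries were amplified by PCR and sequenced as pairs on a NovaSeq. Trimming used SeqPrep and Sickle and alignment used TopHat, per the labels' protocols, and Bowtie 0.12.2 and the R64 build are named per the submitters' processing notes. The program that computed the values, its annotation and whether it used strand is not given in the sources used here. The authors deposited an early table of TPM (unit read from its deposited values, which sum to 998109 to 998610 per library) and a late table of FPKM, per the file headers, with totals from 1510276 to 2145467. Counts were not analysed here, so depth and counting error are unknown.

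From the deposited values, log2(value + 1) was computed and genes with a mean of at least 1 were fitted with limma 3.58.1 (R 4.3.3; trend, 2-sided, Benjamini-Hochberg over all genes tested, threshold 0.05), each stage alone, and over all 12 libraries for the difference between stages. A fold change on this scale understates that of low genes. No fold change is printed for a gene at 0 in some library, but such genes with a mean of at least 1 stay in the fits, counts and medians. Motifs, coordinates and sequences came from the RefSeq R64 genome with Python 3.11.15. Figures used matplotlib 3.10.9. The fits were tested on simulated data. Standard names matched 6048 of 7126 entries.

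The members and lists were chosen with earlier results of these data known. Values in every library were given for RPN4, RPN14, the highest and lowest change of each particle and stage, and members that were called. They were also given for some members that were not called, among them RPT6 and RPN11 early and RPN13 and SCL1 late. Of the further lists, at most the 2 highest and 2 lowest changes per stage were named, with all RPN4 regulators and the genes flagged by the difference between stages. Every p measures only the spread between these libraries, which may be technical. Alternatives were pseudocounts of 0.1 and 5, no filter, a mean of at least 10, 3 rescalings, genes at 0 left out, a replicate block and each library left out.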

Additional observations from a re-analysis of the deposited data

Results flagged for a closer look

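The late NaHS effect differed from the early one, by the interaction in limma, for RPN13 among the members and for CDC48, POC4 and TMC1 among the further genes of the pathway. The difference (late minus early, log2 scale) was -0.988 for RPN13 (SE 0.245, adjusted p = 0.016), with an early change of 0.57 and a late change of -0.42. For CDC48 it was -1.42 (SE 0.205, adjusted p = 0.000919), with an early change of -0.36 that did not pass the test (adjusted p = 0.113). For POC4 it was 2.11 (SE 0.638, adjusted p = 0.0363), and that call was made in 11 of 21 alternatives, lost among others without any 1 of the early libraries. For TMC1 it was -0.93 (SE 0.230, adjusted p = 0.0155), called in 20 of 21 alternatives. TMC1 passed the test in neither stage, with 0.19 early (adjusted p = 0.162) and -0.74 late (adjusted p = 0.0574). POC4 also passed in neither, with -0.32 early (adjusted p = 0.135) and 1.79 late (adjusted p = 0.0769). Stage goes together with table and unit, so a difference between stages cannot be told apart from one of processing.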

How the results depend on the processing

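For the members, the count of early rises, 2 (RPN13 and SCL1), was 1 with a pseudocount of 0.1 and with no filter (RPN13), 1 with a replicate block (PUP2, neither of the 2), 5 after median-ratio and 6 after upper-quartile scaling, and 0 to 5 with a library left out; they were 0 without any 1 of the controls or NaHS 2, 1 without NaHS 1 and 5 without NaHS 3. The 10 early falls became 3 after median-ratio and 2 after upper-quartile scaling, and 6 to 18 with a library left out (6 without any 1 of the controls or NaHS 2, 18 without NaHS 3). The late rise of RPN4 became 0 with no filter, equal totals or a replicate block, and 0 to 1 with a library left out. The 2 late falls became 4 at a mean of at least 10, 5 with genes at 0 left out, 1 with a replicate block, and 1 to 4 with a library left out. For the difference between stages, the count of lower members went from 1 to 5 with median-ratio scaling and 1 to 5 with a library left out, and that of higher members from 0 to 0 to 1. Replicate numbers were not shown to pair libraries: deviations of same-numbered libraries correlated at -0.035, -0.011 and -0.028 early and at -0.113, 0.086 and 0.041 late. Log2 changes that turned sign, none of them called, were those of RPN14 early after median-ratio (0.0835) and upper-quartile scaling (0.182), of PUP2 late with upper-quartile scaling (0.0656) and equal totals (0.036), and of UBR2 late with the same settings (0.0812 and 0.0595). With a library left out, signs turned for RPN4 early (-0.0046 to 0.278) and, late, for RPN3 (-0.626 to 0.897), CUZ1 (-0.0232 to 0.385), YAP1 (-0.184 to 0.243), PUP2 (-0.272 to 0.0751) and UBR2 (-0.0956 to 0.0474). Unless named beside the value, the cause was not tested. Over all genes, the early counts of 616 rises and 1743 falls ranged from 296 to 1207 and from 939 to 2317. Late values at 0 in some library and unknown depth limit what can be said of low genes such as RPN2, RPN3 and RPN14.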
